A study of Mus musculus with 12 samples.

Results

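Expression of the integrin and focal adhesion genes was followed across 12 RNA-seq libraries of C18-4 cells, a mouse line established from type A spermatogonia. The genes were chosen by symbol: every integrin alpha and beta subunit in the table, with 19 cytoplasmic genes of focal adhesions. This gave 45 of 17576 genes, made up of 18 alpha subunits, 8 beta subunits and the 19 cytoplasmic genes. There were 4 groups of 3 libraries: 8276OV (virus to overexpress lncRNA8276), 5NC, 8276KD (virus to inhibit lncRNA8276) and 3NC. All groups shared the C18-4 background and the strain entry "IRC mouse". The labels do not spell out 5NC and 3NC. The design text names 5NC next to overexpression and 3NC next to knockdown, so they were taken as the matching control viruses. The comparison of 5NC with 3NC was made as well. Neither the promoter of the virus nor the time after infection is stated, and nothing says whether a group was a clone or a pool. Because the lncRNA8276 transcript was not analysed here, the group labels were not checked against its level. Nothing in the labels ties the 3 libraries of a group to separate cultures. The p-values therefore reflect library-to-library spread alone, possibly technical.

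Integrins are receptors made of an alpha and a beta subunit that bind matrix proteins outside the cell. Talin and kindlin bind the tail of the beta subunit and switch the receptor on, and the complex of Ilk, PINCH and parvin assembles there. Vinculin, alpha-actinin, tensin, zyxin and Vasp tie the site to actin filaments, while Fak, Src, Bcar1 and paxillin carry its signals. In the testis, spermatogonial stem cells rest on the laminin-rich basement membrane, and Itga6 and Itgb1 are used as their surface markers.

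The libraries held 10929 to 11165 genes at an FPKM of at least 1, and the steps of the lowest values imply about 11.1 to 13.1 M counted fragments per library. Of 19 germ cell markers found in the table, 15 stayed below 1 in every library, among them Gfra1 (at most 0.17), Zbtb16 (at most 0.04) and Ddx4 (at most 0.03). Uchl1, Etv5 and Epcam were at 1 or more in all libraries, and the Sertoli cell gene Wt1 was at 49.0 to 62.8, while 4 of the 7 Sertoli markers found stayed below 1 throughout. The labelled cell type was thus supported by few of its defining markers. The libraries also differed in how level related to the GC content of the transcript. Slopes were fitted across genes to the deviation of log2 level from the gene's mean over the 12 libraries. Each slope is thus relative to the other libraries. Per 10 points of GC, it was -0.46, -0.24 and -0.36 in 8276OV libraries 1, 2 and 3, against 0.20, 0.15 and 0.18 in 5NC. The slopes were -0.040, 0.18 and -0.0019 in 8276KD, against 0.13, 0.10 and 0.15 in 3NC. 8276KD replicate 2 stood apart from its group in this slope, and the 8276OV libraries were spread. Because 19 of the 27 expressed integrin and focal adhesion genes had a GC content over 50%, each result below is also given after a correction for GC content where that changes it.

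Expression was broad among the cytoplasmic genes and narrow among the integrins. A gene was tested when it reached an FPKM of 1 in at least 3 libraries, which 27 of the 45 genes did. These were 6 alpha subunits (Itga2b, Itga3, Itga5, Itga6, Itga7, Itgav), 4 beta subunits (Itgb1, Itgb3, Itgb5, Itgb7) and 17 cytoplasmic genes, and 25 of them were at 1 or more in every library. Itgb7 passed only through the 3NC group, so a difference of 3NC from the others was built into its selection. The other 18 never reached 1: Itga1, Itga2, Itga4, Itga8, Itga9, Itga10, Itga11, Itgad, Itgae, Itgal, Itgam, Itgax, Itgb2, Itgb4, Itgb6, Itgb8, Fermt1 and Parvb. The highest value among them was 0.93 for Itga1, a collagen receptor subunit, 11 stayed below 0.1 throughout, and Itgax was listed at 0 in all libraries. Fermt1 and Parvb, relatives of the kindlin and parvin that were expressed, never exceeded 0.01 and 0.05.

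Itgb1, the beta subunit shared by most of the matrix receptors, was the highest of the 45 genes in each of the 12 libraries. It was at 374, 343 and 359 FPKM in 8276OV libraries, against 288, 296 and 289 in 5NC libraries. It was at 316, 281 and 313 in 8276KD libraries, against 277, 273 and 264 in 3NC libraries. 8276OV and 8276KD each lay wholly above their controls. Zyx, Actn4, Actn1 and Fermt2 followed, with group means between 90.7 and 178 FPKM, and Lims1 joined them in 8276OV with a mean of 104. Their order differed between groups. Among the alpha subunits Itga3, Itgav and Itga5 led with group means of 22.7 to 70.7, while Itga6, Itga7 and Itga2b were at 0.910 to 6.37.

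**Figure D1:**
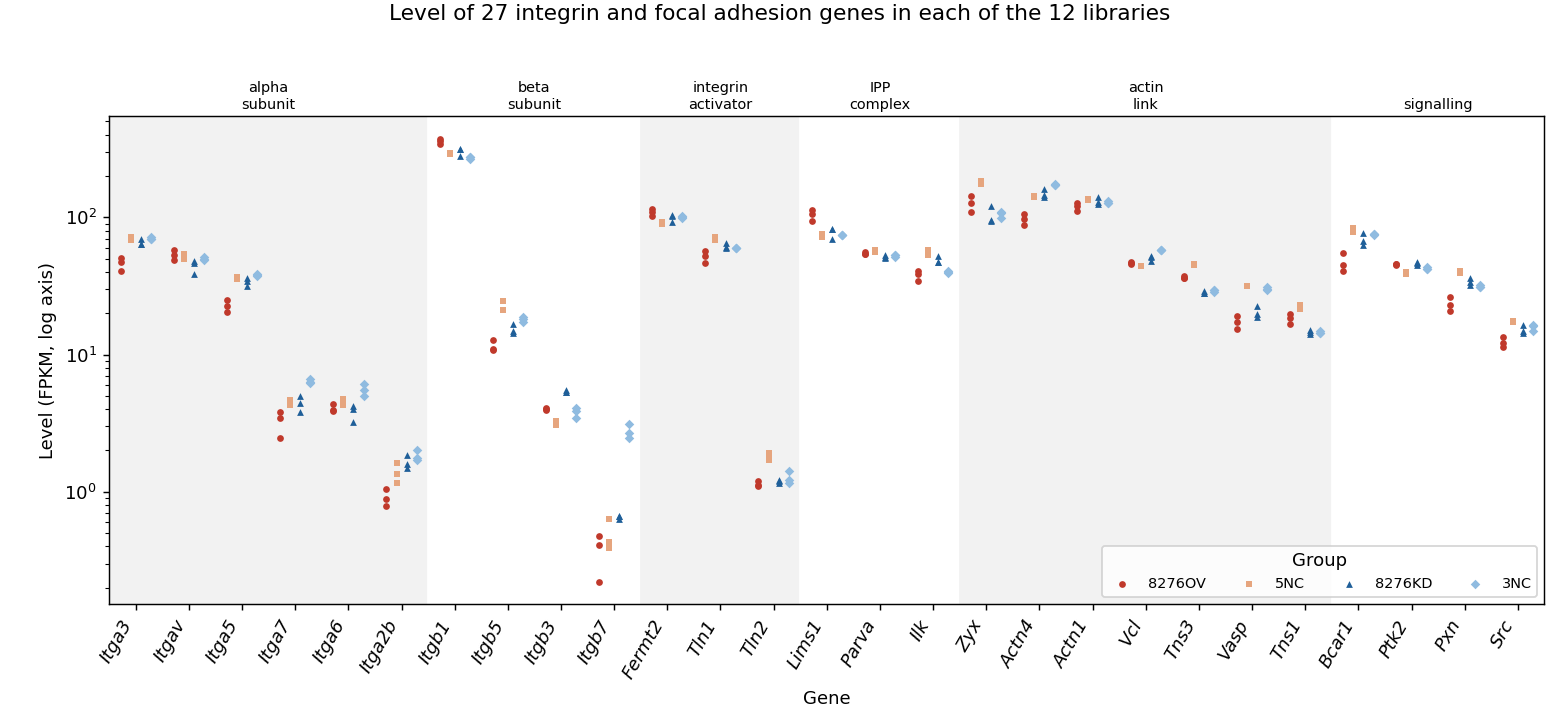
Level of the 27 expressed integrin and focal adhesion genes in each of the 12 libraries (1 point per library), in FPKM on a log axis, with genes grouped by role. Itgb1 is highest throughout, and Itgb7 is at 2.47 to 3.11 FPKM in the 3NC libraries and below 1 in the others.

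The promoters of 4 genes are shown as examples, chosen after their values were seen, of genes called between 5NC and 3NC, from 250 bases before to 50 bases after the transcript start as RefSeq gives it on build GRCm38.p6. Vcl lies at chr14:20929148-20929447 (plus strand), Itgb7 at chr15:102231886-102232185 (minus), Zyx at chr6:42349578-42349877 (plus) and Tns3 at chr11:8664486-8664785 (minus). Each is written along its own strand, with capitals at matches to a GC box (GGGCGG), an AP-1 site (TGANTCA), a TEAD site (GGAATG) or a CArG box, searched on both strands.
Vcl: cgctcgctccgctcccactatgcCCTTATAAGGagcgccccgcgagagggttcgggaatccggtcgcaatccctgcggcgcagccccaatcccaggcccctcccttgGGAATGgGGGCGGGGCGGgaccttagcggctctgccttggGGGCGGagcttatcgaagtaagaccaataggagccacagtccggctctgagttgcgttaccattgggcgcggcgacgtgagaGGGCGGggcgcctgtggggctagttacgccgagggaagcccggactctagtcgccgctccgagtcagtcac
Itgb7: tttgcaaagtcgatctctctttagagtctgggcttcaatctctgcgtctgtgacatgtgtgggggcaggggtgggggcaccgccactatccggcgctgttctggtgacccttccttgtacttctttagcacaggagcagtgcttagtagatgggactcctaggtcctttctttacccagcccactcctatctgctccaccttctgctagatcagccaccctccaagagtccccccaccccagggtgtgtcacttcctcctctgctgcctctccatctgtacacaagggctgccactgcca
Zyx: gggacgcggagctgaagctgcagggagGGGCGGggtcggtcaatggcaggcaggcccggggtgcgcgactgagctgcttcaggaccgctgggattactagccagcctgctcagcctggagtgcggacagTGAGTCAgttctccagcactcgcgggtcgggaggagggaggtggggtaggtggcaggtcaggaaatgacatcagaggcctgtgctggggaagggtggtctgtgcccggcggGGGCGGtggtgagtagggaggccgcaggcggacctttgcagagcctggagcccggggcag
Tns3: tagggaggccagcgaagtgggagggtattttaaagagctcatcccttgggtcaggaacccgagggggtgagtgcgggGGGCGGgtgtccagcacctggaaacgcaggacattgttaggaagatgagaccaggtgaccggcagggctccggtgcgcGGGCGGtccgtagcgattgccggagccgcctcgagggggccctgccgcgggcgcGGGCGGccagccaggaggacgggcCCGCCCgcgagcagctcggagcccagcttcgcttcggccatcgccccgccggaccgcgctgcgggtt
Vcl held 1 CArG box, 1 TEAD site and 4 GC boxes, a pair of which overlap. Zyx held 2 GC boxes and 1 AP-1 site, Tns3 held 4 GC boxes, and Itgb7 held no match to these letters.

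RefSeq promoters were matched for 33 of the 45 genes, and for 20 of the 27 expressed genes with 25 promoters. A GC box occurred in 18 of these 25, or 72%, beside 35.7% of 32851 promoters of the same length. The AP-1 site occurred in 3 of 25 (12%), for Actn4, Itga3 and Zyx, beside 7.81% of all. The TEAD site occurred in 3 (12%), for Actn4, Itgb1 and Vcl, beside 14.7%, and the CArG box in 2 (8%), for Fermt2 and Vcl, beside 1.63%. The 25 promoters are those of expressed genes, whereas the 32851 were not filtered by expression, so the shares are not of like sets. Several promoters can belong to the same gene, and a match describes the letters and shows no binding.

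As deposited, the alpha sum was lower and the beta sum higher in 8276OV than in 5NC, and likewise in 8276KD than in 3NC. The alpha subunits summed to 131.5 ± 3.30 FPKM in 8276OV and 169.6 ± 4.89 in 5NC, and to 155.1 ± 1.05 in 8276KD and 172.8 ± 1.25 in 3NC (SD, n = 3 each). The beta subunits summed to 375.9 ± 14.6 in 8276OV and 318.1 ± 3.6015 in 5NC, and to 325.5 ± 18.2 in 8276KD and 296.9 ± 7.03 in 3NC. The ratio of the alpha sum to the beta sum was 0.350 ± 0.0218 in 8276OV and 0.533 ± 0.0120 in 5NC, and 0.478 ± 0.0278 in 8276KD and 0.582 ± 0.0099 in 3NC. Both gaps exceed the spread between libraries, although 3 libraries against 3 cannot give an exact permutation p below 0.1. With 5NC as the control, the 8276KD beta sums of 337, 305 and 335 overlapped those of 5NC, at 318, 322 and 315. The 8276KD alpha sums, at 154, 155 and 156, stayed below those of 5NC, at 165, 175 and 169. Itgb1 made up 95.4% of the beta sum in 8276OV and 91.4% in 5NC, and 93.1% in 8276KD and 91.4% in 3NC. Itgav, Itga3 and Itga5 together made up 91.4% to 93.1% of the alpha sum in every group, counted by group means. These sums are as deposited, without the GC correction. In 8276OV over 5NC the fold changes of their leading subunits shrank or turned round with it. The corrected log2 fold change there was -0.031 for Itga3 (-0.62 as deposited), -0.10 for Itga5 (-0.65), -0.19 for Itgav (0.059) and 0.11 for Itgb1 (0.30). In 8276KD over 3NC it was -0.0068 for Itga3 (-0.092), -0.075 for Itga5 (-0.15), -0.22 for Itgav (-0.18) and 0.13 for Itgb1 (0.16), so that of Itgav did not shrink. In bulk RNA, fewer cells of a type and less RNA per cell cannot be told apart.

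**Figure D2:**
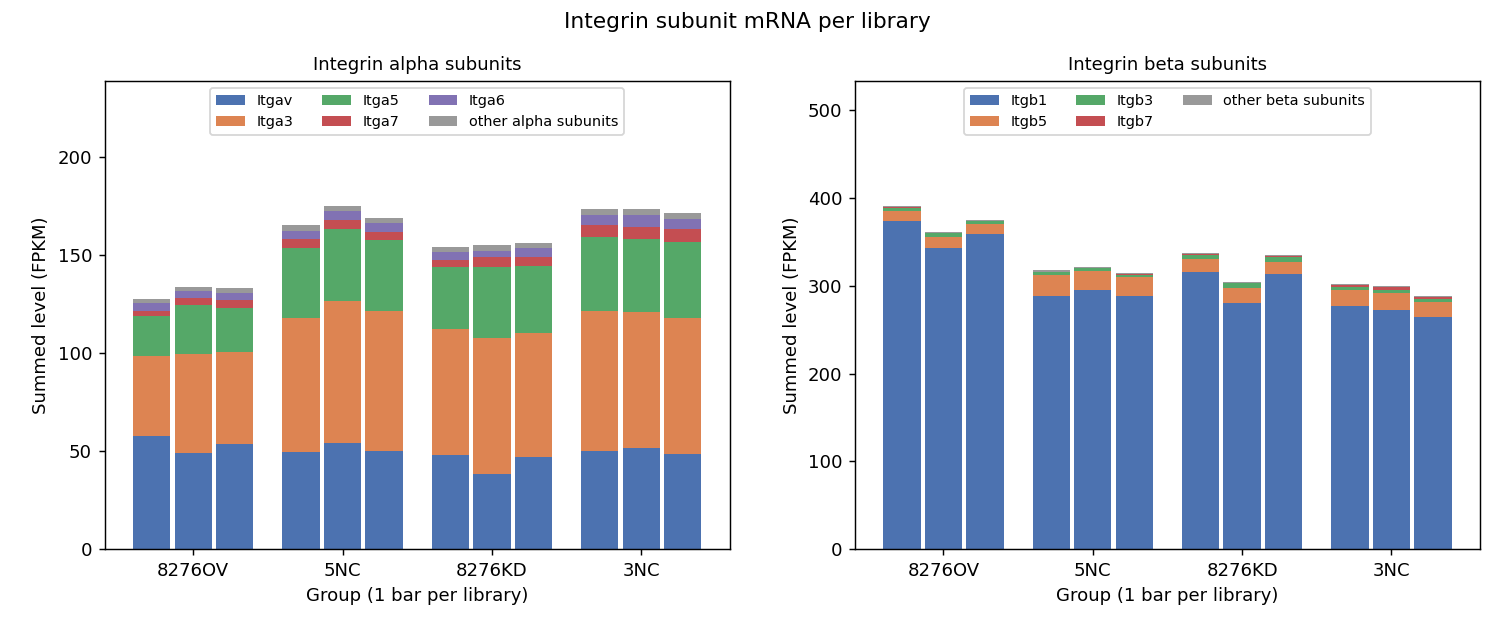
Summed FPKM of the alpha and of the beta integrin subunits in each library, with 1 stacked bar per library and colours for the single subunits. The ratio of the alpha to the beta sum averages 0.350 in 8276OV against 0.533 in 5NC, and 0.478 in 8276KD against 0.582 in 3NC, as deposited and without the GC correction.

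With 8276OV against 5NC, most of the adhesion genes fell, led by Itgb5, Vasp, Bcar1, Pxn, Itga5 and Itga3, while Itgb1, Itgb3, Lims1, Fermt2 and Ptk2 rose. In limma at an adjusted p of 0.05, 5 of the 27 genes were higher, 17 were lower and 5 were not called. The called share, 81.5%, stood against 74.4% of all genes tested. The share higher was 18.5% against 30.3% of all genes, and the share lower 63% against 44.1%. The median log2 fold change was -0.31 over the 27 genes and -0.088 over all genes. After the GC correction 11 were higher and 8 lower, and the median was 0.020. The 11 include Itga2b and Itgb7, which were near or below 1 FPKM in both groups. Of all genes 27.8% were higher and 27% lower after it, 54.8% in all. Against 3NC in place of 5NC, 5 were higher and 14 lower, while 75.2% of all genes were called, 33.5% higher and 41.7% lower. Itgb7 is among those 14, although its filter rested on 3NC. Among all genes, 3447 were higher and 5005 lower, against 4168 and 4284 with median-of-ratios factors and 4428 and 3997 with quantile normalization. Of the 22 calls against 5NC, 11 kept their direction after the GC correction, 5 turned to the opposite direction and 6 were not called. How many calls of all genes kept their direction was not counted, in this or the later comparisons.

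Among the alpha subunits, 4 of 6 fell and none rose as deposited, and after the GC correction 2 were lower and 1 higher. Of all genes 44.1% were lower and 30.3% higher as deposited, and 27% and 27.8% after the correction. Itga5, which pairs with Itgb1 as the classical fibronectin receptor, was at 20.5, 25.03 and 22.6 FPKM in 8276OV libraries, against 35.3, 36.8 and 36.3 in 5NC. All 8276OV libraries lay below all 5NC libraries, and the log2 fold change was -0.65 (SE 0.0659, adjusted p = 1.72e-06). It was -0.10 after the GC correction, still called lower. Itga3, a laminin receptor subunit, was at 40.5, 50.4 and 46.9 in 8276OV, against 68.4, 72.4 and 71.2 in 5NC. Its groups did not overlap either, and its log2 fold change of -0.62 (adjusted p = 2.65e-06) became -0.031 after the GC correction, with no call. Itga7, another laminin receptor subunit, averaged 3.23 and Itga2b, the platelet fibrinogen receptor subunit, 0.910 in 8276OV, against 4.49 and 1.38 in 5NC, while of the platelet markers Gp9 was at most 0.1 in any library and Gp1bb averaged 0.707 in 8276OV and 1.007 in 5NC. Its part in the result was not tested. Both were called lower, with log2 fold changes of -0.39 and -0.31. Both turned positive after the GC correction, at 0.19 (not called) and 0.29 (called). That correction takes off a trend fitted over genes of every level, so the corrected value of a gene as low as Itga2b is uncertain. Itgav, the alpha subunit of receptors for vitronectin, was at 57.8, 49.0 and 53.6 in 8276OV, against 49.6, 53.9 and 50.1 in 5NC. These ranges overlap and the log2 fold change of 0.059 was not called, although after the GC correction it was -0.19 and called lower. Itga6, the laminin receptor subunit used to sort spermatogonial stem cells, was at 4.38, 3.93 and 3.86 in 8276OV, against 4.31, 4.74 and 4.47 in 5NC. The ranges overlap, and it was not called in this comparison (log2 fold change -0.12, adjusted p = 0.217). Against 3NC it was called lower (-0.36, adjusted p = 0.00203), and so it was against both controls together (-0.24).

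The beta subunits went in both directions. Itgb1 rose by a log2 fold change of 0.30 (SE 0.0483, adjusted p = 7.63e-05), and by 0.11 after the GC correction. Itgb5, the partner of Itgav in a vitronectin receptor, was at 10.8, 12.7 and 11.1 FPKM in 8276OV, against 24.4, 20.98 and 21.1 in 5NC. The groups were far apart, and its log2 fold change of -0.89 (SE 0.0783, adjusted p = 6.43e-07) was the largest fall of the 27 genes. It was -0.35 after the GC correction and -0.60 against 3NC, called lower each time. Itgb3, which pairs with Itgav and Itga2b, averaged 4.02 in 8276OV and 3.16 in 5NC, higher by 0.27 on the log2 scale (adjusted p = 0.00127). It was 0.50 after the GC correction, and against 3NC it was not called (0.068). Itgb7, below 1 in every library of both groups, averaged 0.37 in 8276OV and 0.483 in 5NC. It was not called as deposited (log2 fold change -0.12) and was called higher after the GC correction (0.48). That correction takes off a trend fitted over genes of every level, so the corrected value of so low a gene is uncertain.

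The proteins that activate integrins split. Fermt2, the kindlin expressed here, rose by a log2 fold change of 0.26, with means of 109 FPKM in 8276OV and 90.7 in 5NC. It was 0.11 after the GC correction, and against 3NC the value of 0.11 was not called (adjusted p = 0.0590). Tln1, the main talin, was at 46.8, 57.2 and 52.0 in 8276OV, against 70.2, 68.2 and 71.9 in 5NC, without overlap. Its log2 fold change was -0.43 (adjusted p = 2.55e-05), but 0.11, called higher, after the GC correction. Tln2, the second talin, averaged 1.14 in 8276OV and 1.83 in 5NC and was called lower (log2 fold change -0.40), with no call after the GC correction. Within the complex of Ilk, PINCH and parvin, the 3 genes differed in direction. Lims1, which encodes PINCH, averaged 104 in 8276OV and 74.6 in 5NC (log2 fold change 0.47, and 0.14 after the GC correction). Ilk, the pseudokinase at its core, was at 34.3, 40.7 and 38.8 in 8276OV, against 58.1, 53.1 and 53.7 in 5NC. It fell by 0.53 on the log2 scale (adjusted p = 7.26e-06) and by 0.33 after the GC correction, but against 3NC it was not called. Parva, the parvin expressed here, averaged 54.9 in 8276OV and 56.9 in 5NC and was not called (log2 fold change -0.051), but was called lower (-0.14) after the GC correction.

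Of 7 genes that link adhesions to actin, 6 fell as deposited, and after the GC correction 2 were lower and 2 higher. Against 3NC in place of 5NC, 3 were higher and 3 lower. Of all genes 44.1% were lower as deposited, 27% after the correction and 41.7% against 3NC. Vasp, which extends actin filaments, was at 15.5, 19.2 and 17.3 FPKM in 8276OV, against 31.7, 31.8 and 31.8 in 5NC. The groups were well apart, with a log2 fold change of -0.84 (SE 0.0737, adjusted p = 6.09e-07), -0.26 after the GC correction and -0.78 against 3NC. Actn4, a crosslinker of actin, was at 87.3, 105 and 96.7 in 8276OV, against 142, 141 and 141 in 5NC. Its log2 fold change was -0.55, and it remained lower after the GC correction (-0.11) and against 3NC (-0.84). Zyx, a LIM protein of strained actin fibres, was at 109, 142 and 128 in 8276OV, against 183, 175 and 175 in 5NC. Its groups did not overlap (log2 fold change -0.50, adjusted p = 3.96e-04), yet it was 0.020 after the GC correction, and against 3NC it was called higher (0.25). The tensins, which bind beta tails and actin in fibrillar adhesions, behaved likewise against the other control. Tns1 was at 16.6, 19.6 and 18.4 in 8276OV, against 21.5, 22.8 and 22.8 in 5NC, and Tns3 at 36.3, 37.4 and 36.4 in 8276OV, against 45.8, 44.7 and 44.9 in 5NC. Both were lower by 0.29 on the log2 scale against 5NC, and both were called higher against 3NC, by 0.30 and 0.32. After the GC correction Tns1 was called higher (0.21, adjusted p = 0.00119) and Tns3 was not called (-0.016, adjusted p = 0.751). Vcl, the vinculin gene, was at 47.1, 46.2 and 45.6 in 8276OV, against 44.2, 44.1 and 44.1 in 5NC. Its ranges did not overlap, but the log2 fold change of 0.067 was not called (adjusted p = 0.161). Against 3NC it was called lower (-0.31). Actn1, the other alpha-actinin, averaged 119.6 in 8276OV and 135 in 5NC and was called lower (log2 fold change -0.17), but higher (0.12) after the GC correction. Markers of peritubular myoid cells, smooth-muscle-like cells that also use these actin linkers, summed to 101 to 116 in 8276OV and 139 to 142 in 5NC. Of these 7 markers 5 were at 1 or more in every library, while Myh11 and Actg2 never exceeded 0.08 and 0.05. Their part in the result was not tested.

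Among the signalling genes 3 of 4 fell as deposited, and after the GC correction 1 was lower and 2 higher. The shares of all genes were 44.1% lower as deposited, and 27% lower and 27.8% higher after the correction. Pxn, which encodes the scaffold paxillin, was at 20.9, 26.3 and 23.1 FPKM in 8276OV, against 40.4, 39.7 and 39.1 in 5NC. The groups were apart, and the log2 fold change of -0.74 (SE 0.0684, adjusted p = 8.48e-07) was -0.17 after the GC correction and -0.41 against 3NC. Bcar1, the docking protein phosphorylated by Src, was at 40.5, 54.99 and 44.98 in 8276OV, against 78.2, 82.9 and 83.3 in 5NC. Its log2 fold change of -0.80 (adjusted p = 4.93e-06) became -0.12 after the GC correction, with no call (adjusted p = 0.0572). Src itself averaged 12.3 in 8276OV and 17.4 in 5NC (log2 fold change -0.47), and was called higher, by 0.18, after the GC correction. Ptk2, which encodes the focal adhesion kinase, was at 44.9, 45.7 and 45.4 in 8276OV, against 38.8, 40.3 and 39.5 in 5NC. It rose by 0.19 on the log2 scale (adjusted p = 5.47e-04) and by 0.10 after the GC correction. Against 3NC it was not called (0.087, adjusted p = 0.0592).

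Across the 27 genes, the log2 fold change of 8276OV over 5NC fell with GC content, with a Spearman rho of -0.74, and over 11197 genes rho was -0.79. These points share the same libraries and a common trend with base composition, so the values are descriptive. The lowest GC content belonged to Lims1 (40.7%), which rose, and the highest to Bcar1 (59.9%), which fell. The 14 of the 27 genes with a GC content of 54.5% or more had a median log2 fold change of -0.52, beside -0.56 for all genes in that range. The 2 genes below 44.7% had a median of 0.27, beside 0.33 for all genes in that range. The part of GC content in the single fold changes was not tested beyond the correction. The GC correction against 5NC, 3NC as the control and both controls together were each tried singly. The calls that held in each were those of Actn4, Itga5, Itgb1, Itgb5, Lims1, Pxn and Vasp. The GC correction was not combined with another control. With it, Pxn was -0.17 in 8276OV against 5NC but 0.26 in 5NC against 3NC, and Itgb5 -0.35 and 0.22.

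**Figure D3:**
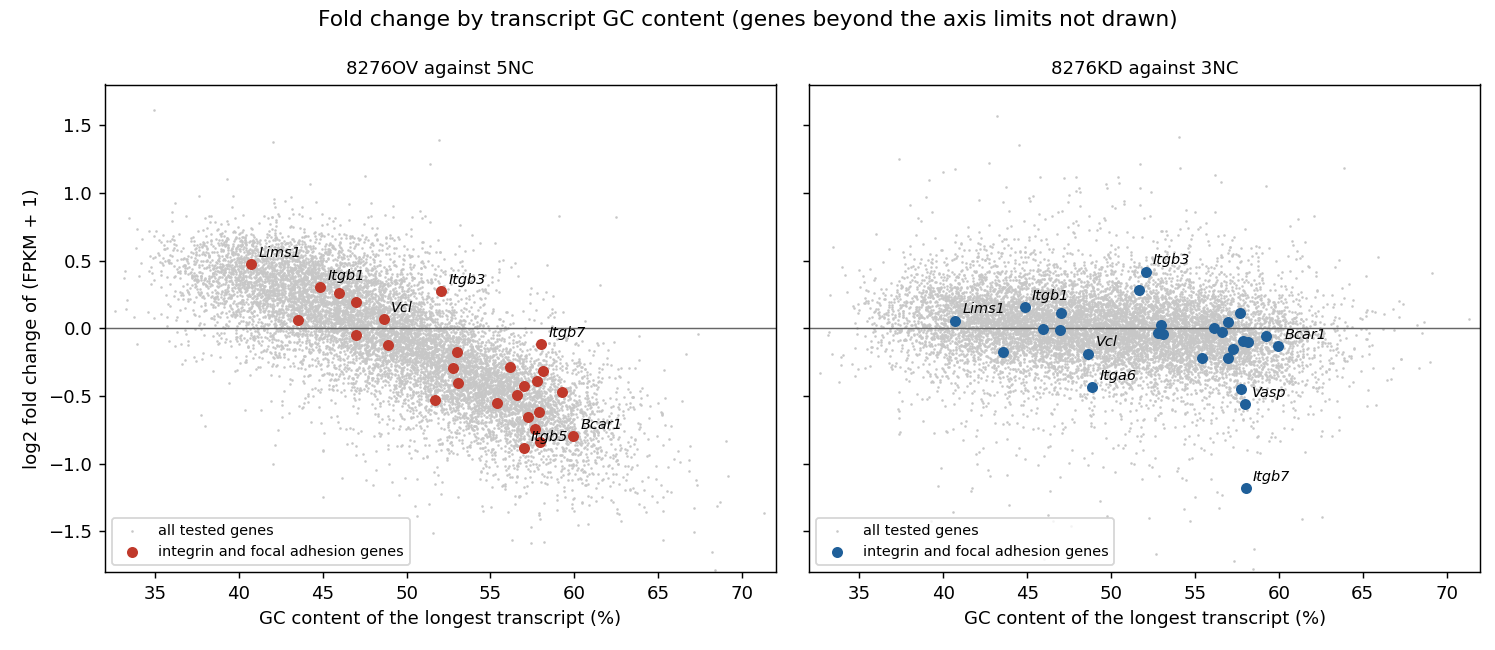
Log2 fold change against the GC content of the longest annotated transcript (percent), with large points for the 27 integrin and focal adhesion genes and small grey points for all genes tested, for 8276OV over 5NC and 8276KD over 3NC. Fold changes of 8276OV over 5NC run downward with GC content from Lims1 to Bcar1, among the grey points of all genes.

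With 8276KD against 3NC, fewer of the genes changed. Itgb7, Vasp, Itga7, Itga6, Itgb5, Actn4 and Vcl fell, and Itgb3, Ilk, Itgb1 and Ptk2 rose, which left 16 of the 27 not called. Itgb7 is counted although its filter rested on 3NC. The called share of 40.7% stood against 39.4% of all genes tested, so the adhesion genes were called about as often as genes at large. Of all genes 20% were higher and 19.5% lower. The median log2 fold change was -0.046 over the 27 genes and -0.0048 over all genes. All 11 calls kept their direction after the GC correction, which called 6 higher and 8 lower. Of all genes it called 25.3% higher and 23.1% lower, 48.4% in all. Against 5NC in place of 3NC, 4 were higher and 13 lower. Of the 11 calls, only those of Itgb3, Itgb5, Ptk2 and Vasp were called again in the same direction. Itgb1 (0.058), Itga6 (-0.19) and Itga7 (-0.025) kept their sign without a call. Of all genes 24.7% were then higher and 30.5% lower, 55.3% in all.

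Itgb7, the beta subunit of lymphocyte integrins, had passed the filter only through 3NC, so its fall against 3NC is a description. It was at 0.67, 0.67 and 0.63 FPKM in 8276KD libraries, against 3.11, 2.69 and 2.47 in 3NC libraries. It was at 0.41, 0.48 and 0.22 in 8276OV libraries, against 0.63, 0.39 and 0.43 in 5NC libraries. Only the 3NC libraries were above 1. The log2 fold change of 8276KD over 3NC was -1.18 (SE 0.0955) on the log2(FPKM + 1) scale, which understates changes of low genes. Against 5NC it was 0.16 and not called. Its alpha partners Itga4 and Itgae never exceeded 0.03 and 0.33. The leukocyte markers summed to 4.37 to 4.67 in 8276KD and 6.34 to 7.62 in 3NC, and to 2.59 to 3.43 in 8276OV and 3.29 to 3.82 in 5NC. Of the 10 leukocyte markers found, 8 stayed below 1. Most of the sum was Cd68, which averaged 2.91 in 8276KD and 5.05 in 3NC, with Cd14 at 0.663 in 8276KD and 1.02 in 3NC. Ptprc was at most 0.03, and Cd3e was listed at 0. The part of those markers in the result was not tested. Itgb2, the beta subunit of other leukocyte integrins, also lay low in 8276KD, at 0.18, 0.15 and 0.29, against 0.67, 0.76 and 0.77 in 3NC. It did not pass the filter on low values, and with no filter its log2 fold change was -0.52 (adjusted p = 3.28e-05).

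The subunits that pair with Itgb1 in laminin receptors fell in part. Beside this, the 19 germ cell markers summed to 125 to 147 in 8276KD and 84.9 to 93.4 in 3NC, and their part in the result was not tested. Nearly all of that sum was Uchl1, a hydrolase that averaged 125 in 8276KD and 77.1 in 3NC, whereas Etv5 averaged 4.09 in 8276KD and 7.81 in 3NC, and Epcam 1.33 in 8276KD and 1.85 in 3NC. Itga6 was at 4.04, 3.22 and 4.24 FPKM in 8276KD, against 4.98, 6.08 and 5.48 in 3NC. The groups did not overlap, and the log2 fold change was -0.43 (SE 0.0882, adjusted p = 0.00174). Against 5NC it was -0.19 and not called. Itga7 averaged 4.42 in 8276KD and 6.37 in 3NC (log2 fold change -0.45), and was likewise not called against 5NC. Itga3, at 64.2, 69.2 and 63.4 in 8276KD, against 71.4, 69.1 and 69.4 in 3NC, overlapped with its control by 8276KD replicate 2 and was not called. Itgav was at 47.8, 38.4 and 46.8 in 8276KD, against 49.8, 51.6 and 48.6 in 3NC, lower in each library but not called (log2 fold change -0.18, adjusted p = 0.0894), although after the GC correction it was called lower (-0.22, adjusted p = 0.00159). Itga5 was at 31.6, 36.2 and 34.4 in 8276KD, against 38.1, 37.3 and 38.5 in 3NC, and was not called (adjusted p = 0.0782).

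Itgb3 averaged 5.40 FPKM in 8276KD and 3.79 in 3NC, a rise of 0.42 on the log2 scale (SE 0.0617, adjusted p = 1.53e-04), and 0.62 against 5NC. Itgb5 was at 14.4, 16.8 and 14.8 in 8276KD, against 18.1, 18.7 and 17.1 in 3NC. Its groups lay close without overlap, with a log2 fold change of -0.22 (adjusted p = 0.0377), -0.14 after the GC correction and -0.51 against 5NC. The call of Itgb5 against 3NC was lost without 3NC replicate 1 or 2, or without 8276KD replicate 1 or 3. Itgb1 was higher by 0.16 (adjusted p = 0.0192), a call lost without 3NC replicate 3 or 8276KD replicate 1 or 3.

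Vasp had the clearest change among the cytoplasmic genes in 8276KD. It was at 18.7, 22.4 and 19.6 FPKM in 8276KD, against 29.4, 30.2 and 31.2 in 3NC, and the groups were well apart. The log2 fold change was -0.56 (SE 0.0737, adjusted p = 6.02e-05) and -0.63 against 5NC. Actn4 was at 141, 161 and 145 in 8276KD, against 174, 172 and 172 in 3NC (log2 fold change -0.22, adjusted p = 0.0133). That call was lost without 8276KD replicate 1 or 3, and against 5NC the value was 0.073. Vcl was at 51.6, 47.8 and 52.3 in 8276KD, against 57.7, 57.9 and 57.4 in 3NC, below in every library. It fell by 0.19 on the log2 scale (adjusted p = 0.00327), while against 5NC it was called higher by 0.19. Ilk was at 46.9, 52.4 and 47.5 in 8276KD, against 40.7, 39.7 and 39.5 in 3NC, above in every library. It rose by 0.28 (adjusted p = 0.00331), while against 5NC it was called lower, at -0.17. Ptk2 was at 46.9, 46.4 and 45.0 in 8276KD, against 43.6, 42.0 and 42.2 in 3NC, higher by 0.11 on the log2 scale. Its adjusted p of 0.0399 was lost on leaving out any 3NC library, or 8276KD replicate 1 or 2.

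Genes that were not called in 8276KD as deposited included those with large falls in 8276OV. Bcar1 was at 67.6, 76.9 and 62.4 FPKM in 8276KD, against 76.0, 74.0 and 76.1 in 3NC, with overlap through 8276KD replicate 2. Pxn was at 33.5, 36.3 and 32.4 in 8276KD, against 31.9, 30.9 and 31.3 in 3NC, higher in each library without a call (log2 fold change 0.11, adjusted p = 0.202), but called higher after the GC correction (0.20, adjusted p = 5.20e-04). Tln1 was at 59.9, 64.7 and 61.0 in 8276KD, against 59.55, 60.05 and 59.97 in 3NC, with ranges that overlap, and it was called higher after the GC correction (log2 fold change 0.12, adjusted p = 0.00651). Tns1 at 14.2, 15.1 and 14.5, Tns3 at 28.1, 28.1 and 29.2 and Zyx at 95.8, 122 and 94.4 in 8276KD stood against 14.4, 14.9 and 14.3, 28.5, 29.6 and 29.4, and 110, 99.3 and 107 in 3NC. None of these 3 was called against 3NC, and each was called lower against 5NC, by 0.58, 0.65 and 0.78 on the log2 scale. Bcar1 (-0.24), Pxn (-0.22) and Tln1 (-0.18) were called lower against 5NC too, so the direction for Pxn and Tln1 depended on the control.

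**Figure D4:**
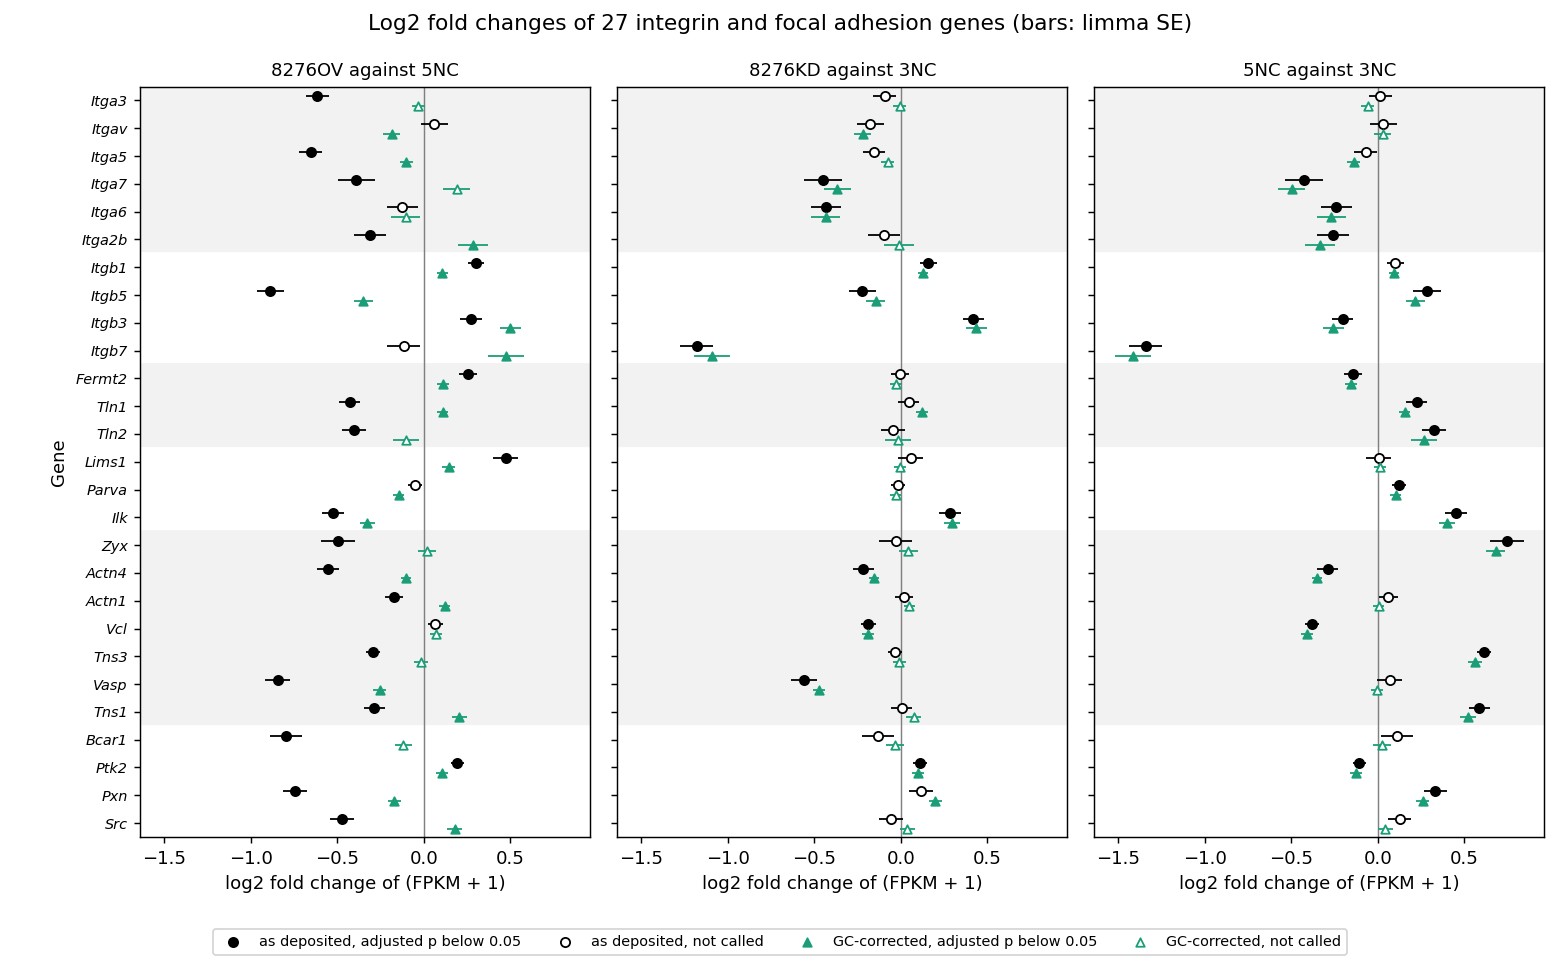
Log2 fold change on the log2(FPKM + 1) scale with its limma SE for the 27 integrin and focal adhesion genes in each comparison, as deposited (circles) and after the GC correction (triangles), filled where called. As deposited, in 8276OV over 5NC, 17 genes are lower and 5 higher, in 8276KD over 3NC 7 are lower and 4 higher, and in 5NC over 3NC 9 go each way. The counts over 3NC include Itgb7, which passed the filter only through 3NC.

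The control groups themselves differed. In 5NC against 3NC, 9 of the 27 genes were higher and 9 lower, 66.7% called against 56.5% of all genes, of which 30.6% were higher and 25.9% lower. All 18 calls kept their direction after the GC correction, which called 10 in each direction, with 64.5% of all genes called, 31.2% higher and 33.3% lower. Zyx (log2 fold change 0.75, adjusted p = 2.14e-05), Tns3 (0.62, 3.06e-08), Tns1 (0.59, 2.13e-06), Ilk (0.45), Pxn (0.33), Tln2 (0.33), Itgb5 (0.28), Tln1 (0.22) and Parva (0.12) were higher in 5NC. Itgb7 (-1.34), Itga7 (-0.43), Vcl (-0.38, 4.84e-06), Actn4 (-0.29), Itga2b (-0.26), Itga6 (-0.24), Itgb3 (-0.20), Fermt2 (-0.14) and Ptk2 (-0.11) were lower. The call of Itgb7 is in these counts, although it passed the filter only through 3NC and its lower value was built into that selection. The calls of Fermt2, Itga2b, Itga6, Itgb3, Parva and Ptk2 were lost on leaving out at least 1 library. The count of lower genes dropped to 4 without 3NC replicate 2 and to 5 without 5NC replicate 3. This comparison shares the 5NC libraries with 8276OV against 5NC and the 3NC libraries with 8276KD against 3NC, so its fold changes are not independent of theirs.

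The effects of the overexpression and knockdown viruses, which share no library, were compared by the difference of their fold changes. The 8276OV effect was lower than the 8276KD effect for 15 of the 27 genes and higher for 5, 74.1% called against 60.6% of all genes, of which 24.5% were higher and 36.2% lower. After the GC correction 4 were lower and 7 higher, with 49.3% of all genes called, 24.9% higher and 24.4% lower. Beside Itgb7 (1.06), whose filter rested on 3NC, the differences in log2 fold change furthest from 0 as deposited were -0.86 for Pxn, -0.81 for Ilk, -0.67 for Bcar1 and -0.66 for Itgb5. After the GC correction they were -0.37 for Pxn, -0.62 for Ilk, -0.21 for Itgb5 and -0.085 for Bcar1, which was no longer called (adjusted p = 0.341). Each difference also takes in the gap between 5NC and 3NC, which was 0.45 for Ilk and 0.33 for Pxn. Ilk fell in 8276OV against 5NC and rose in 8276KD against 3NC (adjusted p of the difference 1.26e-05). Against the other control it was not called in 8276OV (-0.077) and was lower in 8276KD (-0.17). Its opposite directions thus depended on the choice of control. The difference for Ilk held after the GC correction. So did those of Fermt2, Itga6, Itgb5, Itgb7, Lims1, Pxn and Vcl, while that of Vasp turned round. Each against its own control, Itgb1, Itgb3 and Ptk2 were called higher with both viruses, and Actn4, Itga7, Itgb5 and Vasp lower with both. With the other control for each virus, only Itgb5 and Vasp of these were called the same way with both. Itgb3 and Ptk2 then lost their calls in 8276OV, and Itgb1, Actn4 and Itga7 in 8276KD. How many of all genes were called alike with both viruses was not counted. The differences between the viruses were not called for Itgb1 (0.14, adjusted p = 0.0849), Itgb3 (-0.15), Ptk2 (0.083) or Itga7 (0.061), which does not show that the effects were equal.

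Other genes of the adhesion pathway were counted with and without the GC correction. Of 35 expressed adaptors and actin linkers, 6 were higher and 24 lower in 8276OV against 5NC, but 16 higher and 9 lower after the correction. Of all genes tested 30.3% were higher and 44.1% lower, and after the correction 27.8% and 27%. Synm, which encodes an intermediate filament protein, averaged 2.12 FPKM in 8276OV and 0.333 in 5NC (log2 fold change 1.22). Synm passed the filter only through its 8276OV libraries, so a rise was built into its selection. Trip6, a zyxin relative, averaged 48.9 in 8276OV and 85.5 in 5NC (-0.80, and -0.22 after the correction). Of 23 integrin ligands and matrix partners, 3 were higher and 12 lower, and after the correction 13 higher and 6 lower. Mfge8, a secreted ligand of Itgav receptors, averaged 63.9 in 8276OV and 119 in 5NC (log2 fold change -0.90, and -0.40 after the correction). Of 49 expressed kinases, phosphatases and GTPase genes, 9 were higher and 26 lower, and after the correction 7 and 25. Myl9, a myosin light chain, averaged 2.61 in 8276OV and 6.27 in 5NC (log2 fold change -1.01, and -0.49 after the correction). Of 23 membrane partners of integrins, 9 were higher and 11 lower.

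In 8276KD against 3NC the same lists gave 6 higher and 8 lower for ligands, 6 and 7 for adaptors, 13 and 8 for kinases and GTPases, and 8 and 4 for membrane partners. The share of all genes was 20% higher and 19.5% lower. Npnt, which encodes a ligand of Itga8 receptors, averaged 2.29 FPKM in 8276KD and 5.88 in 3NC (log2 fold change -1.06), and it was lower against 5NC as well (-0.96). Spp1, the secreted integrin ligand osteopontin, averaged 50.04 in 8276KD and 181 in 3NC (-1.84), but against 5NC the value was -0.011 and not called. Pak1, a kinase downstream of Rac, averaged 2.85 in 8276KD and 5.33 in 3NC (-0.73, and -0.46 against 5NC). Cd81, a tetraspanin, averaged 192 in 8276KD and 119 in 3NC (0.69), and -0.017 against 5NC. In 5NC against 3NC, 11 of 23 ligands were higher and 7 lower, where 30.6% of all genes were higher and 25.9% lower. Fbln5, a matrix protein that binds integrins, averaged 17.7 in 5NC and 3.22 in 3NC (log2 fold change 2.15). Slc3a2, the heavy chain that associates with beta subunits, averaged 205 in 5NC and 113 in 3NC (0.86).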

How the data were processed

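RNA-seq of total RNA was measured in 12 libraries, 3 in each of 4 groups. The authors deposited 1 table of values normalized per gene and library, which were read as FPKM (fragments counted, normalized for length and depth before deposit) from their size and steps, since no unit is named and TPM was not excluded. Mapping used build mm10, per the submitters' processing notes, with aligner and counter not stated. Values were transformed as log2(FPKM + 1), genes at 1 or more in at least 3 libraries were kept (11360), and limma 3.58.1 in R 4.3.3 fitted all 12 libraries together with trend and robust variance, Benjamini-Hochberg threshold 0.05. Fold changes are on that scale and understate changes of low genes. GC content came from the longest GENCODE transcript of 11197 tested genes, including all 27 tested here, and was corrected by a spline with 5 degrees of freedom per library. The fit was checked on simulated data. Depth is approximate. Genes given with every library are those called with an absolute log2 fold change of at least 0.5 in a comparison with a control, plus Itgb1, Itga6, Itgav, Tln1, Vcl and Ptk2. The genes and lists were chosen with earlier results of these data known.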

Additional observations from a re-analysis of the deposited data

How the results depend on the processing

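The calls for 8276OV against 5NC depended most on the GC correction. It gave 11 genes higher and 8 lower of the 27, and with the replicate block added 12 and 9, in place of 5 and 17. Log2 fold changes turned positive with it for Itga7 (0.19), Src (0.18), Actn1 (0.12), Zyx (0.020), Tln1 (0.11), Itga2b (0.29) and Tns1 (0.21). Against 3NC, Tns3 (0.32), Tns1 (0.30) and Zyx (0.25) turned positive, and against both controls together Tns3 (0.015) and Tns1 (0.0076). For 8276KD with 5NC as the control, 13 genes were lower in place of 7, and Actn4 (0.073), Itgb7 (0.16), Vcl (0.19) and Ilk (-0.17) changed sign, as did Vcl (0.0019) with both controls. Quantile normalization gave 2 genes higher and 8 lower in 8276KD in place of 4 and 7, and it moved the median of all genes in 8276OV against 5NC by over 0.1, to 0.029 in place of -0.088. Its split of the 27 genes was then 6 higher and 15 lower. A filter at a mean of 5 tested only 21 of the 27 genes, with 4 lower in 8276KD, and 8 higher and 4 lower in 5NC against 3NC. All 54 calls of the genes it kept, over the comparisons, stayed, so its smaller counts came from genes left out. For the difference of effects, that filter left 3 higher, median-of-ratios factors gave 8 higher and 13 lower, and quantile normalization 7 and 13. The GC correction left 4 lower, or 3 with the replicate block, and turned Actn4 (0.051), Vasp (0.22), Src (0.14), Actn1 (0.070) and Tns1 (0.13) positive. The causes were not tested.

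Leaving out each library gave 5 to 5 higher and 17 to 17 lower for 8276OV, 2 to 3 higher and 5 to 8 lower for 8276KD, 8 to 9 higher and 4 to 8 lower for 5NC against 3NC, and 4 to 7 higher and 13 to 15 lower for the difference of effects. The count of 2 higher in 8276KD came without 3NC replicate 3 or 8276KD replicate 1. The difference of effects lost the call of Actn1, Itga6 or Vasp without some libraries.

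Replicate numbers did not pair the libraries: same-numbered deviations correlated at -0.15, -0.18 and -0.028 in 8276OV with 5NC, at -0.0048, -0.18 and -0.15 in 8276KD with 3NC, and at 0.041, 0.088 and 0.046 in 5NC with 3NC. In the last of these every library correlated best with its own number, a hint from the data only. A replicate block gave 5 higher and 17 lower for 8276OV, 3 and 8 for 8276KD, 9 and 8 for 5NC against 3NC, and 4 and 15 for the difference. Depth limits the 18 genes below 1 FPKM, for which no difference was tested with the filter on low values.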
